A study of Mus musculus with 15 samples.

Results

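The uninduced state of C10 cells was described from 3 of the 15 ChIP-seq libraries of the series, those labelled 0 h for H3K4Me1, H3K27Ac and H3K27Me3, with 1 library per mark. C10 cells are a single line derived from the mouse pre-B line HAFTL. They carry an estrogen-inducible C/EBPαER fusion with a GFP tag, so the fusion was present without its inducer in all 3 libraries. The study proposes some leak of the transgene in such cells, and the labels describe control cells as receiving only the ethanol solvent. By their labels the libraries differed in the antibody and shared the cell line and the time, and every comparison below is between marks. Of the mouse genome cut into 3 kb windows, 825806 windows on chromosomes 1 to 19 and X were used, together with the starts of 21777 protein-coding genes.

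A nucleosome carries its marks on the tails of the histones. H3K4Me1 is laid down by MLL-type methyltransferases at enhancers and on both sides of active promoters, and it can be present before an enhancer is active. H3K27Ac is added by P300 and CBP and marks enhancers and promoters in use, whereas H3K27Me3 is written by the Polycomb complex PRC2 on the same lysine and marks silenced genes, so that a single lysine cannot carry both. In the pre-B stage of B cell development, cells that have rearranged their heavy chain gene display it with the surrogate light chain, under the control of the transcription factors Ebf1 and Pax5.

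The H3K4Me1 library was deposited as 14387664 tags, the H3K27Ac library as 15929378 and the H3K27Me3 library as 31557475. After keeping 1 tag per position, each library was thinned to the 14192083 tags of the smallest, which gave a mean of 17.2 tags per window in each mark. A level below is the number of tags in a 3 kb window divided by that mean, and a window was called enriched when a Poisson tail over the mean was below 0.001, which took at least 32 tags, or 1.86-fold. With 1 library per mark there was no replicate error. Intervals are 95% intervals, exact Poisson for tags and exact binomial for shares of genes. Those for tags cover counting error only. Those for shares take genes as independent draws, which they are not, and cover no error between libraries. No p-value is given because windows and genes are not replicates.

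Stretches of at least 30 kb with tags in 1 library and nearly none in the others numbered 89, of which 87 had H3K27Me3 tags and 2 had H3K27Ac tags. The former held 30 to 97 H3K27Me3 tags in 30 to 1914 kb before thinning, from the library with the most tags, whereas both of the latter lay together. A segment of 90 kb on chromosome 12 that begins at position 114685001 (mm9), within the genes for the immunoglobulin heavy chain, was chosen with its values known. It lies at the 2 stretches with H3K27Ac, and there the H3K27Ac library held 523 tags before thinning (479 to 569.8). H3K4Me1 held 0 tags there, which allows up to 3, and H3K27Me3 held 4 (1.09 to 10.2). In the 90 kb on the side of the constant genes all 3 libraries had tags, with 376 for H3K4Me1, 2009 for H3K27Ac and 408 for H3K27Me3. In the 90 kb on the side of the variable genes all 3 were low, with 54, 82 and 145 tags in the same order. The segment held 23 mappable windows, of which 4 were enriched in H3K27Ac, and no start of a protein-coding gene used here. Leaving it out changed no share of a mark or a pair of marks, over all windows or all gene starts, by more than its last printed digit. The other values below were not recomputed without it. Whether the 3 libraries came from the same stock of cells was not tested.

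The 4 genes given as pre-B markers carried high H3K27Ac and almost no H3K27Me3 at their starts. At Cd79a (chr7:25682400-25687216, + strand), which encodes the Igα signalling chain of the pre-B and B cell receptor, the 3 kb window held 1152 H3K27Ac tags (1086 to 1220, level 67.04), 85 H3K4Me1 tags and 4 H3K27Me3 tags. At Pax5 (chr4:44544017-44724318, - strand), the factor that commits cells to the B lineage, the numbers were 993 H3K27Ac tags (932 to 1057, level 57.8), 25 H3K4Me1 tags and 3 H3K27Me3 tags. Vpreb1 (chr16:16868495-16870936, - strand), a part of the surrogate light chain, had 937 H3K27Ac tags (878 to 999, level 54.5), 75 H3K4Me1 tags and 3 H3K27Me3 tags. Its annotated gene start belongs to a transcript not typed as protein coding, and at the start of the coding transcript, 1588 bp downstream, the window held 985, 39 and 3 tags of H3K27Ac, H3K4Me1 and H3K27Me3. Ebf1 (chr11:44430819-44821593, + strand) had 806 H3K27Ac tags (751 to 864, level 46.9), 49 H3K4Me1 tags and 4 H3K27Me3 tags. All 4 were enriched in H3K27Ac, 3 of 4 in H3K4Me1 and 0 of 4 in H3K27Me3, against 47.6%, 47.9% and 16.2% of all gene starts. By H3K27Ac they ranked 54 (Cd79a), 136 (Pax5), 180 (Vpreb1) and 349 (Ebf1) of 21777, so the label of a pre-B cell fits these markers.

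Markers of other cell types were mostly without H3K27Ac, which was enriched at 47.6% of all starts. Of 8 fibroblast, 7 neuronal and 8 liver markers 0 were enriched in it, and their levels ranged up to 0.931, which is 16 tags at Pdgfrb. Among 8 erythroid markers Klf1 (95 tags) and Epor (32 tags) were enriched and the globin genes Hba-a1 and Hbb-b1 were at 6 and 2 tags. Among 10 T cell markers Gata3 (255 tags) and Tcf7 (111 tags) were enriched, while the T cell receptor genes Cd3e, Cd3d and Cd3g had 4 to 12 tags. Of 10 macrophage or granulocyte markers 3 were enriched in H3K27Ac, Lyz2 with 110 tags, Csf1r with 47 and Cd14 with 32. These are shares of 25% (erythroid), 20% (T cell) and 30% (macrophage or granulocyte), all below that of all starts. The lists were poor in CpG, with median ratios (observed over expected, 1 kb around the start) of 0.171, 0.326 and 0.155 in the same order. Of all starts under 0.2, 8.88% had H3K27Ac, and of those at 0.2 to 0.4, 19.4%. The shares were thus not low for such starts, and the part of CpG content was not tested. H3K27Me3 was enriched at 7 of the 10 macrophage or granulocyte markers (70%, compared with 16.2% of all starts), and 2 of these carried all 3 marks. It was enriched at 40% of the T cell, 37.5% of the erythroid, 25% of the fibroblast, 14.3% of the neuronal and 50% of the liver markers. Of all starts with a CpG ratio under 0.2, 18.8% had H3K27Me3, and of those at 0.2 to 0.4, 25.2%. Whether a few cells of another type added to the H3K27Ac values was not tested.

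The sequence before 5 gene starts is shown because the starts with the highest levels differed in their content of CpG dinucleotides, which are set in capitals. Each is the 250 bases upstream of the annotated start in mm9, read 5′ to 3′ on the strand of the gene. Igll1 (chr16:16864079-16864328, - strand), which encodes the λ5 part of the surrogate light chain, ranked 7 by H3K27Ac. A430093F15Rik (chr19:10815187-10815436, + strand), whose window overlaps that of Cd5, ranked 1 by H3K4Me1. Susd1 (chr4:59451506-59451755, - strand) was a CpG-rich start with strong H3K27Ac. BC061194 (chr2:18620378-18620627, + strand) and the glucagon receptor gene Gcgr (chr11:120391763-120392012, + strand) were among the 10 highest by H3K27Me3.
Igll1: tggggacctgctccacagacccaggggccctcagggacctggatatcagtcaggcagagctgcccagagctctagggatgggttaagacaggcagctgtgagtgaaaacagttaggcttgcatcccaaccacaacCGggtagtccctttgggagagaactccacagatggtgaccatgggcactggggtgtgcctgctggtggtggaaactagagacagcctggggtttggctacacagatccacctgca
A430093F15Rik: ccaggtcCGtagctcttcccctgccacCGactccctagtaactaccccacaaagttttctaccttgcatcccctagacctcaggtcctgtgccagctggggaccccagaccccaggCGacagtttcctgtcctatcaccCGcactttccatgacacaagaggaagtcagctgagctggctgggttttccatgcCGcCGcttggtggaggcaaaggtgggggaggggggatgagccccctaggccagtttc
Susd1: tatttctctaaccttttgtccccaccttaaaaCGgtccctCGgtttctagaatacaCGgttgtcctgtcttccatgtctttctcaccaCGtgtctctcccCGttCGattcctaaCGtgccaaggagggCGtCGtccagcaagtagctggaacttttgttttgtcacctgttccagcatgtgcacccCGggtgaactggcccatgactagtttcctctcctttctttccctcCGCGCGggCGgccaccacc
BC061194: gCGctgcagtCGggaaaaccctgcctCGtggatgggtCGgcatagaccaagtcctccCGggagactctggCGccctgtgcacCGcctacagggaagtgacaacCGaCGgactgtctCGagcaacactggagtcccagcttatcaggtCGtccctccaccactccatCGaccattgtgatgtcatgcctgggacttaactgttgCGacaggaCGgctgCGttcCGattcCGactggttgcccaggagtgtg
Gcgr: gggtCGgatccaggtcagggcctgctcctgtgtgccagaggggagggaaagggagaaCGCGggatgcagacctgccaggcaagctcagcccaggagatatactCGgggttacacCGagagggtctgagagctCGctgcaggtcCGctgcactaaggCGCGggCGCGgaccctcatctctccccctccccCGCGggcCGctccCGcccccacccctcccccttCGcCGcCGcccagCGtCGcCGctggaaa

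Counted in these 250 bases, Igll1 had 1 CpG, A430093F15Rik had 6, Susd1 had 14, BC061194 had 17 and Gcgr had 21. The Igll1 start was thus the poorest in CpG of the 5. Of 9 short motifs searched on both strands, the Igll1 window held the E-box CAGCTG and the A430093F15Rik window held CAGCTG and the PU.1 motif GAGGAAGT, while the other 3 held none of the 9. Such windows before all 21777 starts held CAGCTG in 11.8% of cases and GAGGAAGT in 2.19%, so a match to either is a description and not a site.

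Across the genome the marks covered different lengths and were differently concentrated. H3K27Me3 was enriched in 112981 windows, 13.7% of all, or 339 Mb, H3K4Me1 in 92024 windows, 11.1% or 276 Mb, and H3K27Ac in 52302 windows, 6.33% or 157 Mb. These windows held 71.4% of the tags of H3K27Ac, 62.4% of H3K4Me1 and 34.7% of H3K27Me3. The median level of an enriched window was 6.40 for H3K27Ac, 4.02 for H3K4Me1 and 2.39 for H3K27Me3. The highest window reached 102-fold, 78.2-fold and 17.2-fold in the same order. H3K27Me3 was thus wide and shallow and H3K27Ac narrow and steep, so a threshold on fold removed mostly H3K27Me3. At 4-fold or more, 34261 windows remained for H3K27Ac, 46047 for H3K4Me1 and 3765 for H3K27Me3.

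To ask which marks share a window, the 8 combinations were counted. No mark was enriched in 629940 windows (76.3%). H3K27Me3 alone accounted for 101278 windows, H3K4Me1 with H3K27Ac for 47716, H3K4Me1 alone for 32770 and H3K4Me1 with H3K27Me3 for 9516. H3K27Ac alone was found in 2399 windows, all 3 marks in 2022 and H3K27Ac with H3K27Me3 in 165.

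**Figure D1:**
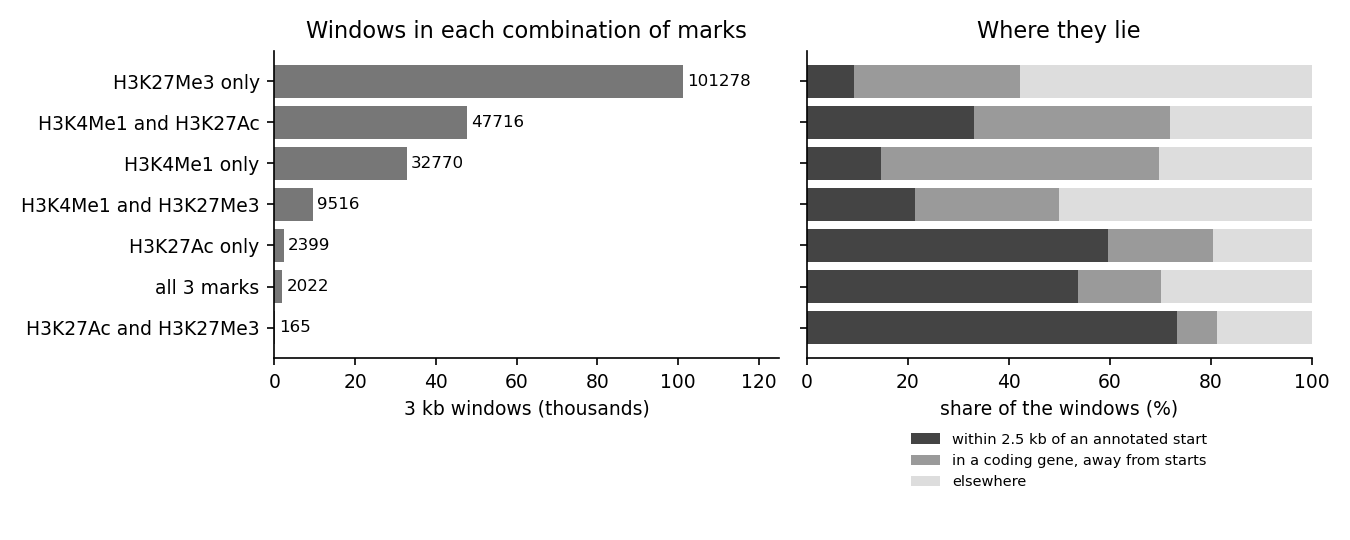
Left, number of 3 kb windows in each combination of enriched marks at 0 hpi. Right, share (%) of those windows within 2.5 kb of an annotated transcript start, elsewhere in a protein-coding gene, or in neither. At the Poisson threshold used, H3K27Me3 alone is the most frequent combination, with 9.33% of its windows near a start against 9.34% of all windows. Windows with H3K27Ac alone are few and 59.7% of them lie near a start. The order depends on the threshold. At 4-fold, 0.456% of windows were enriched in H3K27Me3 and 4.15% in H3K27Ac, and 79.0% of the latter also in H3K4Me1.

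In 3 kb windows at the threshold used, H3K27Ac was nearly always accompanied by H3K4Me1. Of the windows enriched in H3K27Ac, 95.1% were also enriched in H3K4Me1, compared with 11.1% of all windows, and on single chromosomes the share ran from 79.6% to 96.8%. The reverse was not so, since 54.0% of the H3K4Me1 windows were enriched in H3K27Ac (6.33% of all windows). Away from starts these shares were 97.0% and 48.1%. With a 4-fold threshold on both marks, 79.0% of all H3K27Ac windows were enriched in H3K4Me1, against 5.58% of all windows. The share of windows with H3K27Ac rose with the amount of H3K4Me1, from 0.0183% of windows below 0.5-fold through 28.6% at 2 to 4-fold and 72.9% at 4 to 8-fold to 99.6% at 16-fold or more. H3K4Me1 windows without H3K27Ac were therefore mostly the weak ones, with a median H3K4Me1 level of 2.73 compared with 6.28 where H3K27Ac was present.

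**Figure D2:**
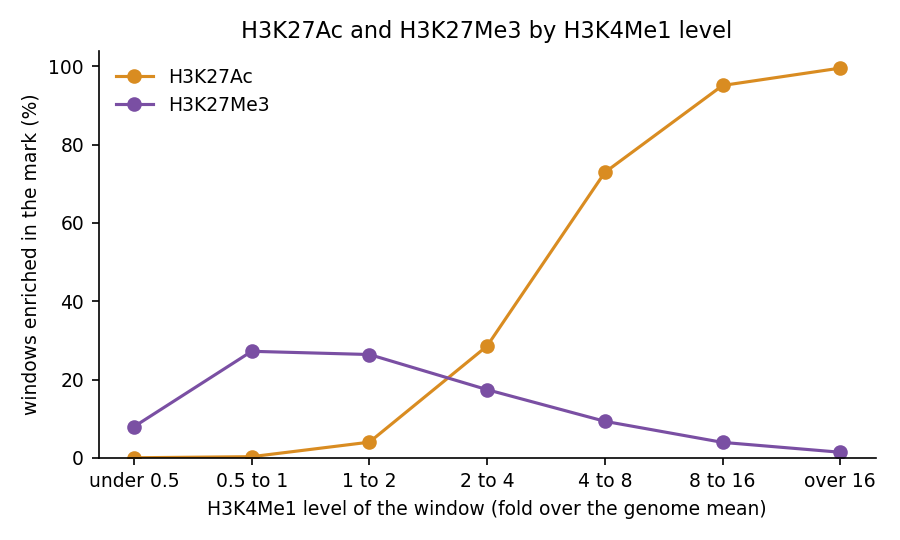
Share (%) of 3 kb windows enriched in H3K27Ac (orange) and in H3K27Me3 (purple) by the H3K4Me1 level of the window, as fold over the genome mean. H3K27Ac rises to 99.6% in the highest class, and H3K27Me3 is most frequent at 0.5 to 1-fold (27.2%) and falls to 1.43%.

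Windows called enriched in H3K27Ac and windows called enriched in H3K27Me3 overlapped less than the shares of all windows. Of the H3K27Ac windows 4.18% were enriched in H3K27Me3, against 13.7% of all windows, and of the H3K27Me3 windows 1.94% were enriched in H3K27Ac, against 6.33%. The share with H3K27Me3 was 14.4% below 0.5-fold H3K27Ac, 16.4% at 0.5 to 1-fold and 6.67% at 1 to 2-fold. It then went from 6.71% at 2 to 4-fold H3K27Ac to 0.441% at 16-fold or more. The share of each mark's windows that held the other stayed below that of all windows in each alternative computed, a higher or lower threshold included.

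Between H3K4Me1 and H3K27Me3 no such direction was stable. With the Poisson rule, 10.2% of H3K27Me3 windows were also enriched in H3K4Me1, slightly under the 11.1% of all windows. With a 4-fold threshold the share was 8.42% against 5.58% of all windows, and with the median in place of the mean as background it was 25.9% against 20.7%. H3K27Me3 was most frequent, at 27.2% and 26.4% of windows, where H3K4Me1 lay between 0.5 and 2-fold of the mean, and least frequent above 16-fold (1.43%).

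Across the 825806 windows, which share libraries and base composition, the Spearman correlation was 0.717 between H3K4Me1 and H3K27Ac, 0.294 between H3K4Me1 and H3K27Me3 and 0.157 between H3K27Ac and H3K27Me3. The last pair changed sign with position, being -0.173 over the 77136 windows near a start and 0.198 over those away from starts. It also ranged from -0.177 on chromosome 11 to 0.254 on chromosome X. In windows away from starts the median levels of all 3 marks rose with GC content up to 50%, from 0.116 to 0.349 for H3K27Ac, 0.175 to 0.640 for H3K4Me1 and 0.640 to 0.989 for H3K27Me3 between windows under 35% GC and those of 45 to 50%. The part of GC content in the positive correlations was not tested.

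Gene-dense chromosomes held more of the active marks. Among the 19 autosomes the share of windows enriched in H3K27Ac ran from 4.84% to 11.4% and that of H3K4Me1 from 8.61% to 20.02%, both highest on chromosome 11. Their rank correlations with the number of protein-coding starts per Mb were 0.767 and 0.733 across 19 chromosomes, and that of H3K27Me3, with 10.3% to 23.0% of windows, was 0.2. Chromosome X was low in each mark, with 2.35% of its windows enriched in H3K27Ac, 3.08% in H3K4Me1 and 1.14% in H3K27Me3. Its mean level was 0.329, 0.304 and 0.449 in the same order, and the part of this in the low shares was not tested.

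Enriched windows joined into 23399 runs for H3K27Ac, 34868 for H3K4Me1 and 39641 for H3K27Me3, with a median length of 6 kb for each mark. The longest run of H3K4Me1 was 315 kb (chr6:99114001-99429000) and that of H3K27Ac 246 kb (chr6:99162001-99408000), both over Foxp1, a forkhead factor required in early B cell development. In the former the mean level was 11.7 for H3K4Me1, 19.6 for H3K27Ac and 0.456 for H3K27Me3. The next longest H3K4Me1 run, 222 kb (chr11:44553001-44775000), lay wholly inside Ebf1 and held the start of no protein-coding gene. The other long H3K4Me1 runs held the starts of Vav2 (165 kb), a guanine nucleotide exchange factor, of Trim66, Rpl27a and St5 (156 kb) and of Fam53b (150 kb).

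Among the longest H3K27Ac runs, Fam53b (162 kb), Mtss1 (138 kb), Cyth1 (117 kb) and Zmiz1 (117 kb) each had the only protein-coding start in their run. A 129 kb run on chromosome 19 (4107001 to 4236000) held 12, among them Coro1b, which encodes a coronin that binds actin, and Ptprcap, whose product associates with CD45. The starts in these runs were low in H3K27Me3, with 6 tags at Cyth1, 7 at Mtss1, 7 at Zmiz1 and 9 at Fam53b. H3K4Me1 at the same starts was 155, 93, 27 and 68 tags.

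The longest H3K27Me3 run, 186 kb (chr2:34056001-34242000), held the start of Pbx3, a TALE homeodomain factor, where the mean H3K27Me3 level was 3.70 and those of H3K4Me1 and H3K27Ac were 0.505 and 0.253. The others held Klhl38, Anxa13 and D15Ertd621e (162 kb), Hnrpll and Galm (159 kb), Bmpr2 (156 kb), a receptor for bone morphogenetic proteins, and Garnl3 (153 kb). The starts inside were not uniformly without H3K27Ac. D15Ertd621e had 100 H3K27Ac tags, Garnl3 had 63 and Hnrpll had 59 within runs whose mean H3K27Ac level was at most 0.610, whereas Anxa13 and Klhl38 had 7 tags each and Galm had 6. Runs of 30 kb or more made up 23.9% of the enriched length of H3K27Me3, 18.3% of that of H3K4Me1 and 10.95% of that of H3K27Ac.

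At gene starts H3K4Me1 and H3K27Ac were far more frequent than in windows of the genome, and H3K27Me3 was not much more so (16.2% of starts against 13.7% of windows). H3K4Me1 was enriched at 10442 of 21777 starts, 47.9%, H3K27Ac at 10362, 47.6%, and H3K27Me3 at 3538, 16.2%. No mark was found at 8121 starts (37.3%, 36.6 to 37.9). The most frequent combination was H3K4Me1 with H3K27Ac, at 8679 starts (39.9%, 39.2 to 40.5), followed by H3K27Me3 alone at 2216 (10.2%), H3K27Ac alone at 965 (4.43%), all 3 marks at 685 (3.15%), H3K4Me1 with H3K27Me3 at 604 (2.77%) and H3K4Me1 alone at 474 (2.18%). H3K27Ac with H3K27Me3 but without H3K4Me1 was found at 33 starts.

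Of the starts with H3K27Ac, 6.93% (6.45 to 7.44) had H3K27Me3, compared with 16.2% of all starts, and 90.4% (89.8 to 90.9) had H3K4Me1, compared with 47.9%. The share with H3K4Me1 depended on the window and the threshold. It was 51.1% against 25.4% of all starts at 4-fold, and 31.9% against 18.8% with a window of 1 kb. Of the starts with H3K27Me3, 36.4% (34.8 to 38.04) had H3K4Me1 and 20.3% (18.98 to 21.7) had H3K27Ac. The former share lies under the 47.9% of all starts, but with a window of 1 kb it was 26.3% against 18.8% of all starts, and at 4-fold 30.9% against 25.4%, so its direction depended on the window and the threshold. Which starts counted as enriched in H3K4Me1 depended most on the window, with 4091 starts for 1 kb and 10442 for 3 kb.

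The marks also differed in their shape around starts. At the 8679 starts with H3K4Me1 and H3K27Ac, H3K4Me1 was at a mean level of 1.54 at the start itself and peaked at 6.54 upstream (850 bp) and 7.31 downstream (1350 bp). H3K27Ac was inside this pair of peaks, with 26.5 at 350 bp upstream and 40.1 at 250 bp downstream. H3K27Me3 was lowest at the start, at 0.252, and was higher 4 to 5 kb upstream (1.24) than as far downstream (0.589). In these windows the central 1 kb held 17.7% of the H3K4Me1 tags and 51.6% of the H3K27Ac tags, where an even spread would give 33.3%.

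The 685 starts with all 3 marks showed the same order of the marks, although the classes were set by totals over 3 kb and not by position. Of their H3K27Ac tags 54.1% lay in the central 1 kb, compared with 27.3% of the H3K4Me1 tags and 24.4% of the H3K27Me3 tags. Mean H3K27Me3 was 1.37 at the start, 3.69 at 1350 bp upstream and 2.78 at 1250 bp downstream. At the 604 starts with H3K4Me1 and H3K27Me3 but no H3K27Ac, by contrast, H3K4Me1 was not depleted over the start to the same degree, with a mean of 3.38 at the start and 4.61 at its highest upstream (350 bp), and H3K27Me3 was 2.48 at the start and 3.46 at its highest downstream. At the 2216 starts with H3K27Me3 alone the mark was almost flat, with 2.40 at the start and 2.24 at 4 to 5 kb upstream.

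**Figure D3:**
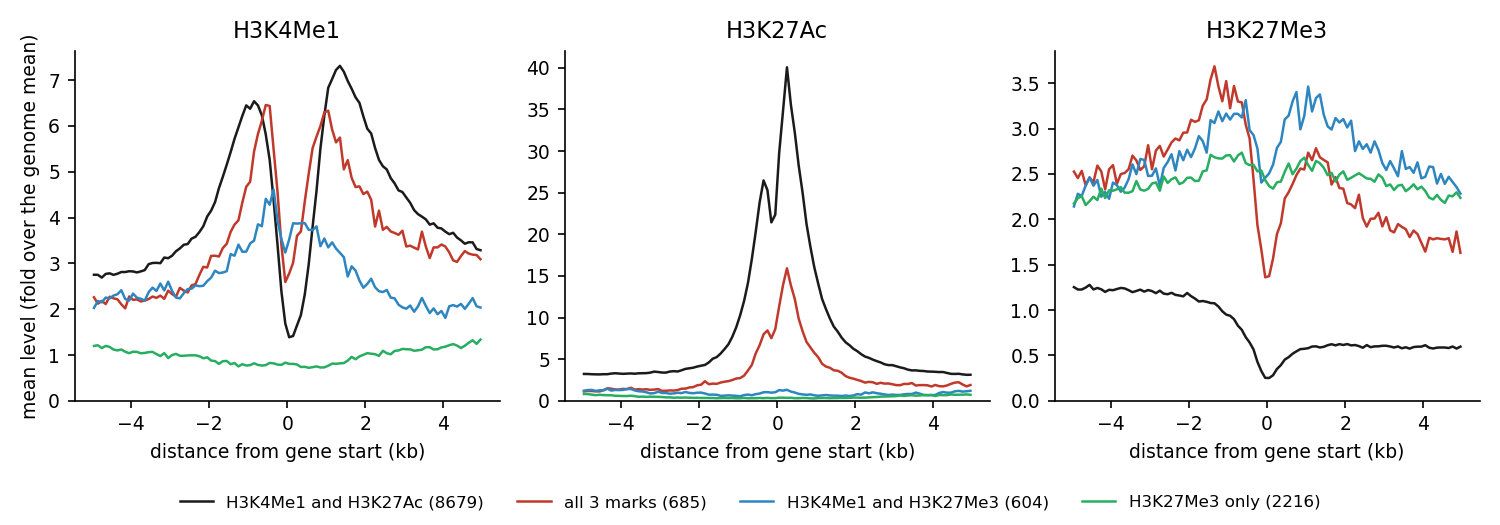
Mean level of each mark (fold over the genome mean, in 100 bp steps) by distance from the gene start (kb, downstream positive) at 0 hpi, for 4 combinations of marks with the number of starts in brackets. H3K27Ac peaks on both sides of the start, inside a pair of H3K4Me1 peaks, where both are enriched, and at starts with all 3 marks H3K27Me3 dips from 3.69 upstream to 1.37 at the start.

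Among the starts ranked highest by H3K27Ac, Dok3, an adaptor that dampens B cell receptor signalling, had 1605 tags (1527 to 1685, level 93.4) and Chst3, a sulfotransferase, had 1495. Pik3ap1, the adaptor BCAP that links the B cell receptor to PI3 kinase, had 1471, Susd1 had 1464 and Def6, an exchange factor of lymphocytes, had 1426. Igll1 had 1407, Vars, a valyl-tRNA synthetase whose window overlaps that of D17H6S56E-5, had 1375, the leukocyte tetraspanin gene Cd37 had 1374 and Acss1 had 1367. Counting errors overlap between neighbours in this order. H3K4Me1 at these starts ranged from 16 tags at Vars to 235 at Dok3, and H3K27Me3 from 3 tags at Susd1 to 16 at Dok3. None of the 100 highest by H3K27Ac was enriched in H3K27Me3, compared with 16.2% of all starts.

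By H3K4Me1 the order was another. A430093F15Rik with Cd5, a receptor of T cells and some B cells, led with 524 tags (480 to 571, level 30.5), and Sfpi1, which encodes PU.1, followed with 458 (417 to 502, level 26.7) and had 1239 H3K27Ac tags as well. P2ry6 (439 tags), Pde4c (438), H1foo (411), 4930451G09Rik (410), Fam129c (410), the metalloprotease gene Mmp9 (408), the urate transporter gene Slc2a9 (406) and Notch1 (404), the receptor that directs lymphoid progenitors to the T lineage, made up the 10 highest. H3K27Ac at these 10 ran from 129 tags at Mmp9 to 1239 at Sfpi1. Mmp9 also had 36 H3K27Me3 tags, just over the 32 needed, and the other 9 had 4 to 19. The 100 highest starts by H3K4Me1 had a median CpG ratio (observed over expected, 1 kb around the start) of 0.217, compared with 0.538 for the 100 highest by H3K27Ac and 0.562 for all starts. Among the 1000 highest these medians were 0.497 by H3K4Me1 and 0.776 by H3K27Ac, the latter above that of all starts.

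By H3K27Me3 the first 4 starts were high in all 3 marks. The same was seen in windows of the genome, since all 27 at 8 to 16-fold H3K27Me3 were enriched in both other marks. No input library was used, so the part of background in such levels was not tested. Sfi1 had 174 H3K27Me3, 355 H3K27Ac and 200 H3K4Me1 tags, Gm17379 had 164, 248 and 258, Gm10800 had 157, 266 and 299, and Gm10801 had 114, 191 and 227. The 10 starts at 4-fold or more in all 3 marks were left out as an alternative, and the share that moved most was that of H3K27Me3 starts with H3K27Ac, from 20.3% to 20.1%. The next were P2ry2 (111 tags), a nucleotide receptor, Gm757 with Slc34a3 (111), BC061194 (108), Gcgr (107), Shbg (101), which encodes sex hormone-binding globulin, and the metalloprotease gene Mmp28 (101). Of these 6, Gcgr had 316 H3K4Me1 and 78 H3K27Ac tags and Shbg had 57 and 8. H3K4Me1 was enriched at 67 of the 100 highest starts by H3K27Me3 and H3K27Ac at 19, compared with 47.9% and 47.6% of all starts. Of the 1000 highest, 453 and 176 were, so the H3K4Me1 share was above that of all starts only in the smaller set.

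CpG content separated the active from the unmarked starts. The share of starts with H3K27Ac rose from 8.88% of the 4574 starts with a CpG ratio under 0.2 to 82.4% of the 4587 starts over 0.8, and that with H3K4Me1 from 14.7% to 72.9%. Starts with no mark fell from 69.5% to 14.7%. H3K27Me3 was most frequent at a ratio of 0.2 to 0.4 (25.2%) and least at over 0.8 (7.37%). Among starts without H3K27Ac the share with H3K27Me3 was 19.96% under 0.2 (18.8 to 21.2), 30.1% at 0.4 to 0.6 (28.0 to 32.3) and 14.5% over 0.8 (12.1 to 17.1), so that CpG-rich starts without acetylation were not the ones most often trimethylated. Their GC content over 3 kb moved with this, from a median of 42.0% to 49.6% and 56.7%, and its part in the counts was not tested.

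**Figure D4:**
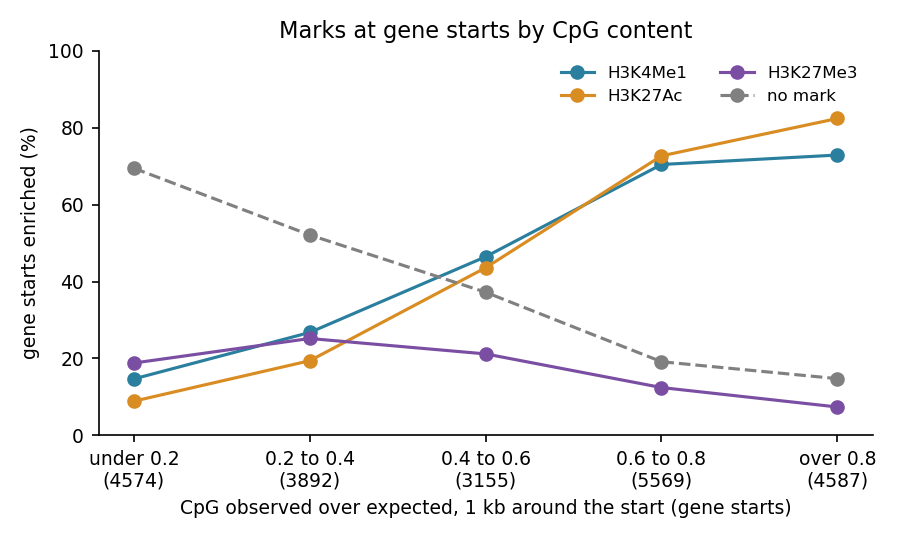
Share (%) of gene starts enriched in each mark, and with no mark (dashed), by the CpG observed-over-expected ratio in the 1 kb around the start, with the number of starts in brackets. H3K27Ac rises from 8.88% to 82.4% and H3K27Me3 falls from 25.2% in the class 0.2 to 0.4 to 7.37% in the highest class.

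Short motifs differed between starts and distal windows. The Ets motif CCGGAAGT was found in 9.63% of windows near starts with H3K4Me1 and H3K27Ac and in 2.94% of such windows away from starts, compared with 1.87% of all windows, and the NRF1 motif GCGCANGCG in 13.5%, 2.04% and 1.43%. Within windows of 45 to 50% GC these shares were 11.1%, 3.43% and 3.25% for Ets and 13.6%, 2.61% and 2.68% for NRF1, so the difference from all windows was at starts. Away from starts, the PU.1 motif GAGGAAGT was in 23.2% of windows with H3K4Me1 and H3K27Ac, 20.02% of those with H3K4Me1 alone and 15.8% of unmarked windows, and the EBF motif CCCNNGGGA in 35.8%, 31.9% and 20.8%. Within windows of 45 to 50% GC, the PU.1 shares were 25.2%, 21.8% and 19.6% and the EBF shares 41.9%, 38.8% and 35.5%. The highest EBF share within that band, 45.3%, was in distal windows with H3K4Me1 and H3K27Me3. The C/EBP motif TTGCNNAAT did not stand out, with 21.5%, 21.4% and 21.9% in that band. PU.1 and Ets motifs share the letters GGAAGT but differ before them, so no match counts for both.

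Genes of the B lineage were then taken by role. Each gene was read at a single annotated start, so other starts of the same gene were not covered. The shares of all starts to set beside these and the following counts were 47.6% for H3K27Ac, 47.9% for H3K4Me1 and 16.2% for H3K27Me3. They were not matched for CpG content, with which the share of each mark changed. Of 21 B lineage transcription factors 20 (95.2%) were enriched in H3K27Ac, with a median level of 41.3 (1.05 for all starts), 15 (71.4%) in H3K4Me1 (median 3.26, 1.63 for all) and 2 (9.52%) in H3K27Me3 (median 0.349, 0.756 for all). Sfpi1 was highest with 1239 H3K27Ac tags. Lef1, which acts with β-catenin, had 1068 with only 13 H3K4Me1 tags. Id3, an inhibitor of E proteins, carried all 3 marks with 302 H3K27Ac, 186 H3K4Me1 and 46 H3K27Me3 tags. Ets1 was the exception at its annotated start, with 7 H3K27Ac and 38 H3K27Me3 tags. Of 19 measured genes of the pre-B receptor and its signalling 18 (94.7%) were enriched in H3K27Ac (median level 40.9, 1.05 for all starts), 18 in H3K4Me1 (6.11, 1.63 for all) and 2 in H3K27Me3. Blk, a Src family kinase, was not enriched in H3K27Ac (26 tags, with 34 of H3K27Me3), and Prkcb, protein kinase C beta, had 71 H3K27Ac and 58 H3K27Me3 tags.

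Of 12 genes of V(D)J recombination and end joining 10 were enriched in H3K27Ac and 10 in H3K4Me1 (83.3% each, compared with 47.6% and 47.9% of all starts). H3K27Me3 was enriched at 0 of the 12, compared with 16.2% of all starts, and at 1 when all tags were used. Dclre1c, which encodes the nuclease Artemis, was highest with 644 H3K27Ac tags. Rag2 had 555 H3K27Ac, 82 H3K4Me1 and 11 H3K27Me3 tags and Rag1 had 190, 183 and 27, both named here after their values were seen. Xrcc6 and Nhej1 had 6 and 7 H3K27Ac tags at their annotated starts. Of 9 genes of lymphoid cytokine receptors and their kinases 7 were enriched in H3K27Ac (77.8%, compared with 47.6%). The interleukin 7 receptor gene Il7r, needed by pre-B cells to grow, had 1054 tags and Crlf2 had 349. The receptors of earlier progenitors differed from these. Flt3 had 12 H3K27Ac, 91 H3K4Me1 and 87 H3K27Me3 tags (70 to 107), and Kit had 3, 2 and 4.

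Genes of later B cells were in several states. Of 16 genes of mature B and plasma cells 14 were enriched in H3K4Me1 (87.5%, compared with 47.9% of all starts), 9 in H3K27Ac (56.3%, compared with 47.6% of all starts) and 5 in H3K27Me3 (31.3%, compared with 16.2%). The share with H3K27Ac was thus near that of all starts, and the median H3K27Ac level was 4.92 (1.05 for all starts). The median CpG ratio of the list was 0.314, and 19.4% of all starts at 0.2 to 0.4 had H3K27Ac. The part of CpG content was not tested. Tnfrsf13c, the BAFF receptor gene, had 469 H3K27Ac tags, and Cd40 carried all 3 marks (50 H3K27Ac, 264 H3K4Me1 and 61 H3K27Me3 tags). At their annotated starts the class II activator gene Ciita and the IgE receptor gene Fcer2a had 5 and 6 H3K27Ac tags with 32 and 47 of H3K27Me3.

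Starts of genes that dividing cells use carried H3K27Ac. All 42 cell cycle and replication genes were enriched in it, compared with 47.6% of all starts (median level 26.0), 33 in H3K4Me1 (78.6%, compared with 47.9%) and 2 in H3K27Me3 (4.76%, compared with 16.2%), with the cyclin gene Ccnd3 highest at 967 H3K27Ac tags and the inhibitor gene Cdkn1a lowest at 48. The 2 with H3K27Me3 were Ccnd2 (108 H3K27Ac and 40 H3K27Me3 tags) and Cdk4 (495 and 37). Of 16 genes used in every cell 16 were enriched in H3K27Ac, from Eef1a1 at 115 tags to Actb at 1092, and 0 in H3K27Me3. Of 82 cytoplasmic ribosomal protein genes 79 were enriched in H3K27Ac (96.3%, compared with 47.6%), and the 3 that were not, Rpl3l, Rpl39l and Rpl10l, had 13, 6 and 1 tags and are paralogues with a narrow range of tissues. Many ribosomal protein genes have near-identical copies, so their counts are uncertain.

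Genes for Polycomb proteins and for enzymes that act on these marks mostly had H3K27Ac at their starts. Of 25 Polycomb genes 22 were enriched in H3K27Ac (88.0%, compared with 47.6% of all starts, median level 13.2) and 5 in H3K27Me3 (20%, near the 16.2% of all starts). Their median CpG ratio was 0.812, and 82.4% of all starts over 0.8 had H3K27Ac, near their share. Pcgf6 carried all 3 marks (82 H3K27Ac, 75 H3K4Me1 and 66 H3K27Me3 tags), Phc2 had 2 H3K27Ac and 34 H3K27Me3 tags, and Cbx7 had 2, 2 and 12 of H3K27Ac, H3K4Me1 and H3K27Me3. Of 15 genes for enzymes that add or remove H3K27 and H3K4 marks 14 were enriched in H3K27Ac (93.3%, compared with 47.6%). Their median CpG ratio was 0.824, in the same class over 0.8. The 14 ran from Crebbp at 98 tags to Kdm5a at 820, and the demethylase gene Kdm5b had 3 tags at its annotated start.

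Macrophage genes, which these cells can later be made to express, were in several states before induction. Of 16 measured myeloid transcription factors 12 were enriched in H3K27Ac (75%, compared with 47.6% of all starts, median level 15.1) and 1 in H3K27Me3 (6.25%, compared with 16.2%). Their median CpG ratio was 0.732, and 72.7% of all starts at 0.6 to 0.8 had H3K27Ac, near their share. Fos carried all 3 marks (201 H3K27Ac, 67 H3K4Me1 and 37 H3K27Me3 tags), and Klf4 had 1, 3 and 6 tags. Cebpa had 87 H3K27Ac tags (70 to 107), 4 of H3K4Me1 and 11 of H3K27Me3, and tags of the added C/EBPαER copy and of the gene itself could not be told apart. Of 7 myeloid growth factor receptors 6 were enriched in H3K27Ac (85.7%, compared with 47.6%). The interleukin 6 receptor gene Il6ra had 688 H3K27Ac tags, the CSF-1 receptor gene Csf1r carried all 3 marks (47 H3K27Ac, 169 H3K4Me1 and 46 H3K27Me3 tags), and the G-CSF receptor gene Csf3r had 5 H3K27Ac and 43 H3K27Me3 tags.

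Of 35 macrophage and granulocyte effectors 23 were enriched in H3K4Me1 (65.7%, compared with 47.9% of all starts), 20 in H3K27Ac (57.1%, compared with 47.6%) and 9 in H3K27Me3 (25.7%, compared with 16.2%), and 5 in no mark. The share with H3K27Ac was not far from that of all starts. The list was poor in CpG, with a median ratio of 0.214, and 19.4% of all starts at 0.2 to 0.4 had H3K27Ac. The part of CpG content in its share was not tested. The endotoxin receptor gene Tlr4 was highest in H3K27Ac with 825 tags. S100a8, a calcium-binding protein of neutrophils, had 2 H3K27Ac and 62 H3K27Me3 tags, the endotoxin co-receptor gene Cd14 had 32 and 56 with 48 of H3K4Me1, and the oxidase gene Cybb had 1, 17 and 2 in that order. The median H3K4Me1 level of the list was 3.90 (1.63 for all starts), its median H3K27Ac level 1.92 (1.05) and its median H3K27Me3 level 0.989 (0.756). Of 9 genes whose enhancers the study calls pre-existing, 9 were enriched in H3K4Me1 at their start, 8 in H3K27Ac and 1 in H3K27Me3, and of 7 called de novo 6, 5 and 3 were. Csf1r, which has an enhancer that the study also calls pre-existing, was not among the 9 and carried all 3 marks. Over all starts the shares were 47.9%, 47.6% and 16.2%, and 1 of 9 (11.1%) is near the last. The study classed enhancers by marks at C/EBPα sites away from starts, and then by whether the paired promoter was active, judged by H3K4Me3 and H3K27Me3. The counts here are of other marks at gene starts, so they do not test those classes. The study chose these genes on the same cells, so the counts are not independent of that choice.

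Genes of other blood lineages were also in several states. Of 21 measured T lineage genes 11 were enriched in H3K4Me1 (52.4%, compared with 47.9% of all starts), 7 in H3K27Ac (33.3%, compared with 47.6%) and 8 in H3K27Me3 (38.1%, compared with 16.2%). Cd5 had 1030 H3K27Ac tags, Notch1 had 410, the T cell receptor genes Cd3d and Cd3g had 62 and 69 H3K27Me3 tags with 38 and 43 of H3K4Me1, and Bcl11b had 2, 1 and 2 of H3K27Ac, H3K4Me1 and H3K27Me3. Of 24 erythroid, megakaryocyte and stem cell genes 7 were enriched in H3K27Ac (29.2%, compared with 47.6% of all starts), among them Lyl1 (1200 tags) and Fli1 (813 tags), and 13 in no mark, compared with 37.3% of all starts. Tal1 carried all 3 marks with 95 H3K27Ac, 45 H3K4Me1 and 55 H3K27Me3 tags, and Alas2 was at 0 H3K27Ac tags, which allows up to 3. The median CpG ratio was 0.292 for the T lineage list and 0.357 for the other list. Of all starts at 0.2 to 0.4, 19.4% had H3K27Ac and 25.2% had H3K27Me3. The H3K27Ac shares of both lists were thus below that of all starts but above that of such starts. The part of CpG content was not tested.

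Of 39 Hox genes, which set position along the body axis, 22 (56.4%, 39.6 to 72.2) were enriched in H3K27Me3, compared with 16.2% of all starts. Hoxc8 was highest with 84 tags of H3K27Me3 and 3 of H3K27Ac. The clusters were not uniform, since Hoxb6 had 984 H3K27Ac and 5 H3K27Me3 tags, Hoxb7 had 725 and 2, and Hoxc4 had 324 and 17. Starts in a cluster lie close together and share tags.

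Developmental transcription factors of tissues outside the blood were mostly without any mark. Of 95 measured, 69 had none, 23 (24.2%, 16.01 to 34.1) were enriched in H3K27Me3, 6 in H3K4Me1 and 4 in H3K27Ac. Over all starts the shares were 37.3% without a mark, 16.2% with H3K27Me3, 47.9% with H3K4Me1 and 47.6% with H3K27Ac. The interval takes the listed genes as independent draws, so it is no test of 24.2% against 16.2%. The median H3K27Me3 level of the 95 was 0.989 and their median CpG ratio 0.676. The limb factor gene Tbx4 was highest in H3K27Me3 with 68 tags, and Irx3 and Irx5 were among the lowest with 1 tag each and had 1 to 2 tags of the other marks. Foxc1 was an exception, with 280 H3K27Ac tags. Tissue-restricted gene families were mostly unmarked as well. Of 1079 olfactory receptor genes 980 had no mark, 88 (8.16%, compared with 16.2% of all starts) had H3K27Me3 and 9 had H3K27Ac. Of 274 vomeronasal receptor genes 254 had no mark, 20 (7.30%, compared with 16.2%) had H3K27Me3 and 0 had H3K27Ac, so no start in this family reached the 32 tags needed. Of 50 keratin genes 14 (28.0%) had H3K27Me3, with Krt222 highest at 83 tags, and Krt80 had 100 H3K27Ac and 157 H3K4Me1 tags.

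**Figure D5:**
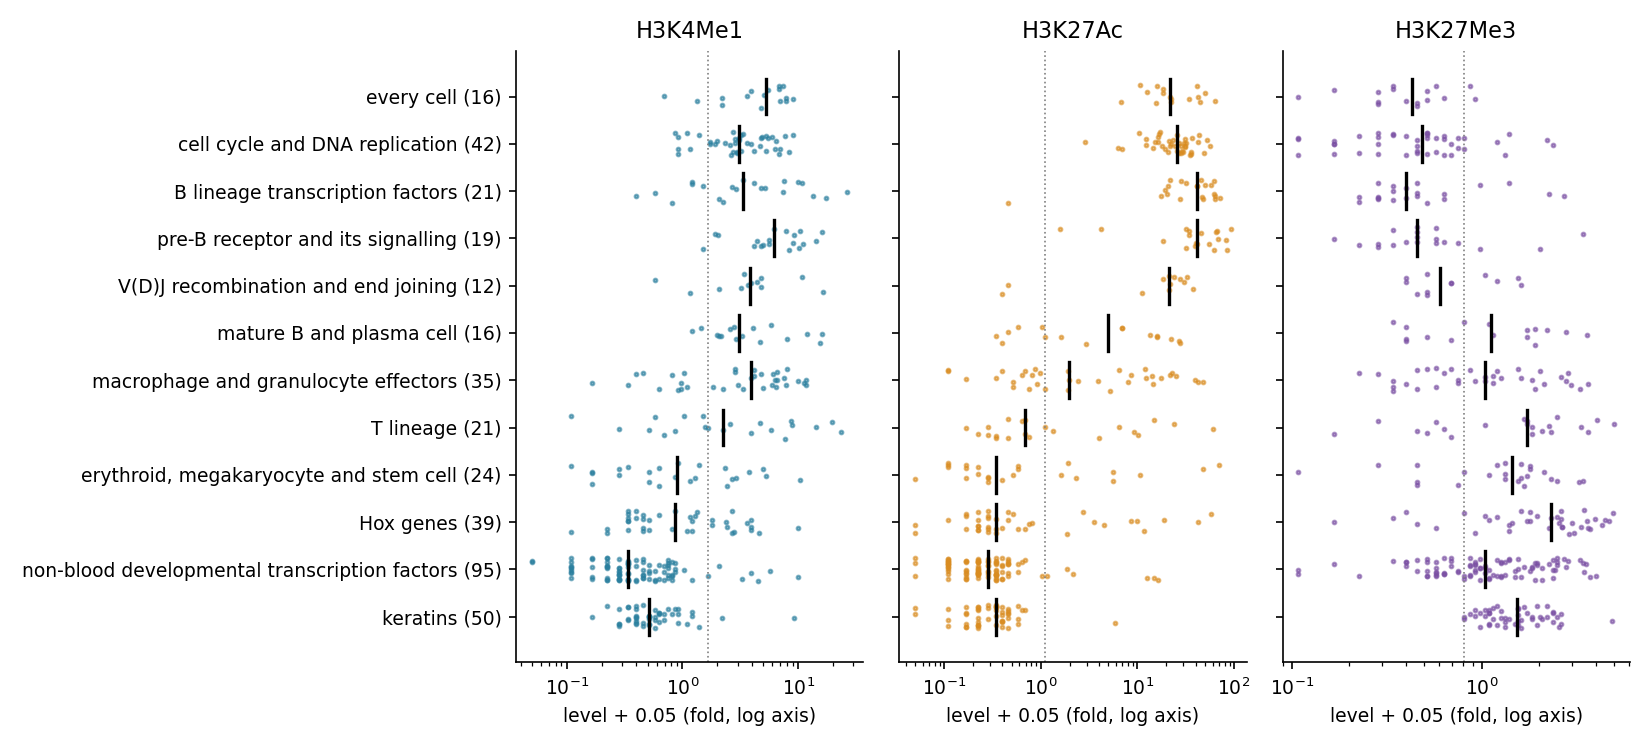
Level of each mark at the starts of listed genes (points, 1 per gene, fold over the genome mean plus 0.05 on a log axis), with the median of each list as a black bar, the number of genes in brackets and the median of all 21777 starts as a dotted line. B lineage transcription factors, cell cycle genes and genes used in every cell lie to the right in H3K27Ac (medians 21.9 to 41.3) and to the left in H3K27Me3, and Hox genes the other way round (medians 0.291 and 2.27).

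Windows with H3K4Me1 and H3K27Ac away from starts numbered 31873. The highest H3K4Me1 window among them held 718 H3K4Me1 and 1312 H3K27Ac tags with 14 of H3K27Me3 and lay in Gna12 (chr5:141240001-141243000), 41.4 kb from the nearest protein-coding start. The next held 713, 1181 and 13 tags between genes, 26.3 kb from the start of Spocd1 (chr4:129597001-129600000). The window with the most H3K27Ac, 1757 tags, lay 9.39 kb from the start of Aldh1b1 (chr4:45801001-45804000) and held 407 H3K4Me1 tags. These windows were at 41.8-fold, 41.5-fold and 102-fold of the mean in the mark they lead. The highest H3K4Me1 window of the genome, at 78.2-fold, lay near an annotated start. Among the highest H3K27Me3 windows away from starts, the first 7 were at 3.96-fold or more in each mark, and the eighth, 3.07 kb from the start of Plag1 (chr4:3861001-3864000), had 132 H3K27Me3, 31 H3K4Me1 and 2 H3K27Ac tags.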

How the data were processed

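ChIP-seq libraries of uninduced C10 cells were compared between marks, with antibodies from Diagenode (H3K4Me1), Abcam (H3K27Ac) and Millipore (H3K27Me3), as the labels name them. The files deposited by the authors list positions of aligned tags of 36 bp, without strand, and hold no count, signal or peak. According to the methods, tags were aligned without mismatch to mm9 with Eland or Bowtie, and the submitters' processing notes name mm9 and Bowtie. The aligner of each single library is not given in the sources used here. No input library was used, so levels were not corrected for background. Of the 15 libraries in the series 12, from later times, were not used, and 0 columns were left unassigned.

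Each tag was placed at its middle (18 bp), 1 tag per position was kept on chromosomes 1 to 19 and X, and libraries were thinned at random to equal depth, which kept 100% of H3K4Me1, 93.3% of H3K27Ac and 44.99% of H3K27Me3. The H3K27Me3 file held positions with at most 1 tag and the H3K27Ac file at most 2, compared with up to 205 for H3K4Me1, so the files differed in their repeated positions. Tags were counted in 3 kb windows, of which 26144 of 851950 had no tag and were left out. Gene starts were the 5′ ends of protein-coding genes in the GENCODE annotation of mm9 with 1.5 kb on each side, and 573 of 22350 were left out by the same rule. A window counted as near a start within 2500 bp of any annotated transcript start. The calling code was run on simulated windows with a uniform Poisson background. Such windows lack the uneven background of real ones, so that run does not test the calls made here.

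The members and lists were chosen with earlier results of these data known. The genes named were the 10 highest starts per mark, the 4 given markers, up to 4 members of each list (the highest, the lowest and those in another state) and the starts in the 5 longest runs of each mark. Rag1, Rag2, the globin and Cd3 genes, Pdgfrb, Notch1 as a T lineage gene and Irx5 were added after their values were seen. The symbols Map2, Syk, Cebpd, Gfi1, Ptcra and Sox1 were not matched in the annotation and were not analysed here. Some genes that this rule names are not reported here. Alternatives were other depths, duplicates, thresholds, backgrounds, window sizes and starts. Computation used Python 3.11.15 with numpy 2.4.6, scipy 1.17.1, pandas 2.3.3 and matplotlib 3.10.9.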

Additional observations from a re-analysis of the deposited data

Results flagged for a closer look

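Chromosome Y, which no comparison used, carried tags in all 3 libraries and no control library was used here to set a background for it. After 1 tag per position was kept and before thinning, 620 positions lay on it for H3K4Me1, 1042 for H3K27Ac and 2815 for H3K27Me3. Without a background, stray alignments cannot be told from tags of the chromosome, so nothing is concluded from these counts.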

How the results depend on the processing

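No paired analysis was possible because 1 library was made for each mark, and for the same reason no replicate could be left out. The share of H3K27Me3 windows that also had H3K4Me1 changed sides against that of all windows, from 10.2% against 11.1% to 8.42% against 5.58% at 4-fold and 25.9% against 20.7% with the median as background. At gene starts it changed from 36.4% against 47.9% to 30.9% against 25.4% at 4-fold and 26.3% against 18.8% in a 1 kb window. The share of H3K27Me3 windows and starts with H3K27Ac stayed below that of all in each alternative. Using all tags, tags as deposited, windows shifted by 1500 bp or no chromosome X kept the genome-wide and gene start counts of each mark and each pair within 1.5 times of those reported. The same held without the heavy chain segment, without the 52 windows and 10 gene starts at 4-fold or more in all 3 marks, and with the start of the most upstream protein-coding transcript (1246 starts moved), which were chosen after seeing the data. Among windows, a Poisson tail below 1e-06 left 56950 for H3K27Me3, 4644 for H3K4Me1 with H3K27Me3 and 817 for H3K27Ac with H3K27Me3. A 4-fold threshold left 46047 for H3K4Me1, 34261 for H3K27Ac, 3765 for H3K27Me3, 27055 for H3K4Me1 with H3K27Ac, 317 for H3K4Me1 with H3K27Me3 and 62 for H3K27Ac with H3K27Me3. The median as background gave 171203, 128107, 173081, 107559, 44903 and 13942 in the same order. At gene starts, a tail below 1e-06 left 2026 for H3K27Me3, 676 for H3K4Me1 with H3K27Me3 and 311 for H3K27Ac with H3K27Me3. A 4-fold threshold left 5539 for H3K4Me1, 223 for H3K27Me3, 4900 for H3K4Me1 with H3K27Ac, 69 for H3K4Me1 with H3K27Me3 and 12 for H3K27Ac with H3K27Me3. A window of 1 kb gave 4091, 1466, 3243, 385 and 130 in the same order. For H3K4Me1 with H3K27Me3 and for H3K27Ac with H3K27Me3, the median as background gave 2771 and 1694 and a window of 6 kb gave 2124 and 1267. The correlation of H3K4Me1 with H3K27Ac was 0.794 by Pearson on log2(tags + 1) and 0.850 in 9 kb windows. Of the 100 highest starts, a 1 kb window shared 54 by H3K4Me1, 53 by H3K27Ac and 43 by H3K27Me3 with the 3 kb window, and a 6 kb window shared 59 by H3K4Me1 and 58 by H3K27Me3. Of 568 genes in the lists of under 200, a tail below 1e-06 left 66 with H3K27Me3, and a 1 kb window left 128 with H3K4Me1 and 48 with H3K27Me3. With a tail below 1e-06 the longest H3K4Me1 run was 171 kb and H3K27Me3 formed 25151 runs, and joining runs across 1 window made the longest H3K27Me3 run 318 kb. Counts within single lists moved by more than 1.5 times in 78 of the 435 cases computed, of which 57 were counts under 10 genes. The stricter thresholds and smaller windows hold fewer tags or features by construction. Beyond that, the cause of these differences was not tested.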
